A study of Mus musculus with 12 samples.

Results

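Myeloid lineage transcription factors were examined in peritoneal macrophages through the genes Spi1, Cebpa, Runx1, Cebpb, Cebpd, Klf2, Klf4, Maf and Bhlhe40. They were chosen by gene symbol, with no measured value in the rule but with earlier results of these data known. They make up 9 of the 16920 genes in each deposited table. All 9 genes were found and all 9 passed the filter on low counts. LPS moved the C/EBP genes in opposite directions: Cebpa fell 30.6-fold in WT cells, while Cebpb rose 7.78-fold and Cebpd rose 16-fold. Bhlhe40 fell, Maf and Spi1 rose, and Runx1 did not pass the test under either genotype label, though it passed as lower under some other scalings. Under PBS, 6 of the 9 genes were higher in the libraries labelled Ythdf1 knockout and none was lower, where 12.3% of all genes tested were higher and 13.0% lower.

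Myeloid cells are built by a small number of DNA-binding proteins that act in sequence and in combination. PU.1, the ETS factor that Spi1 encodes, opens enhancers throughout macrophage development, C/EBPα and RUNX1 act on myeloid progenitors, and C/EBPβ and C/EBPδ are the family members best known for inflammatory gene expression. KLF2 and KLF4 are zinc finger proteins that hold inflammatory activation in check or steer monocytes, c-MAF is linked to interleukin-10 and the resting state of tissue macrophages, and BHLHE40 is a basic helix-loop-helix repressor that limits interleukin-10 and supports macrophage proliferation.

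The study addressed the part that YTHDF1, a protein that binds N6-methyladenosine in mRNA, plays in macrophage inflammation. Peritoneal macrophages of WT or Ythdf1-/- mice were cultured overnight and kept for 6 h with either PBS or bacterial lipopolysaccharide (LPS, 1 µg/mL), and each of the 4 combinations gave 3 of the 12 mRNA libraries. All mice were of C57BL/6 background, and the Ythdf1-/- allele was made with CRISPR/Cas9 and is not restricted to a cell type. The series record gives 6% starch broth (3 days) as the agent that elicited the cells, whereas the study's methods name thioglycollate. The study's methods give a range of ages for its mice as a whole and not for single libraries. Replicates are described as independent samples, but whether a library pooled several mice is not given in the sources used here, so p-values measure the spread between these libraries. The Ythdf1-/- libraries are called KO-labelled below, because the targeted Ythdf1 transcript was not lower in them: with PBS its mean was 43.5 ± 1.54 CPM (SD, n = 3) for WT and 57.2 ± 1.53 for the KO label, and with LPS it was 201 ± 9.37 and 198 ± 6.94. These counts cover the whole gene and cannot show whether its deleted part was transcribed.

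Total counts per library lay between 21546274 and 22017005. CPM is the count divided by library size and scaled to a common depth, with library sizes adjusted by the trimmed mean of M values (TMM), and a floor of 3 counts came to between 0.105 and 0.187 CPM. Replicate 1 of WT LPS stood apart from replicates 2 and 3, with a mean chi-square per gene of 30.5 and 23.7 against them and 2.95 between those others. The label of the cells was checked on 10 macrophage markers, all of which were detected, with a summed level of 17629 to 21082 CPM. Resident peritoneal markers were low, with sums of 13.8 to 27.8 CPM, and Gata6, which defines that population, had means of 2.75 and 1.12 CPM in the PBS groups of WT and KO label. The sum of the 6 fibroblast markers ran from 75.1 to 88.6 CPM in WT PBS, 32.9 to 46.2 in KO-labelled PBS, 119 to 132 in WT LPS and 57.0 to 69.5 in KO-labelled LPS. The sum of the 6 neutrophil markers in the tables ran from 103 to 107, 151 to 154, 86.4 to 88.8 and 112 to 121 CPM in the same order, of which Mmp8 made up 147 CPM in KO-labelled PBS, while S100a9 and Retnlg stayed under 3 counts in every library. The sum of the 4 monocyte markers ran from 20.5 to 24.6 CPM under PBS, 83.5 to 123 in WT LPS and 126 to 152 in KO-labelled LPS. The part of these cell type differences in the results below was not tested, and in bulk RNA fewer cells of a type and less RNA per cell cannot be told apart.

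The promoters of 5 of the 9 genes (Cebpa, Cebpb, Klf2, Klf4 and Runx1) were matched in the RefSeq promoter table of build GRCm38.p6. The 250 bases before the gene start are printed for both C/EBP genes, whose transcripts moved in opposite directions with LPS, and for Klf2 and Klf4, whose transcripts were both higher in KO-labelled PBS libraries. Each reads 5′ to 3′ on the strand of its gene. Cebpa lies at chr7:35119043-35119292 (plus strand), Cebpb at chr2:167688665-167688914 (plus), Klf2 at chr8:72318812-72319061 (plus) and Klf4 at chr4:55532476-55532725 (minus). Capitals mark matches, on either strand, to CACGTG (the E-box bound by BHLHE40), TGACG (the core of the cyclic AMP response element), CACCC (a KLF motif) and TTNCNNAA (a C/EBP motif). In Cebpb, TGACG and CACCC overlap at positions -180 and -177.
Cebpa: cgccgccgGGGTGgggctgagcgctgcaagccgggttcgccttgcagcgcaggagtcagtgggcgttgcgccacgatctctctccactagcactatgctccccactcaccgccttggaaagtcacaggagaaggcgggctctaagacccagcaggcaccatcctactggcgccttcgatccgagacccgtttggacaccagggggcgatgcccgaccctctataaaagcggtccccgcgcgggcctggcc
Cebpb: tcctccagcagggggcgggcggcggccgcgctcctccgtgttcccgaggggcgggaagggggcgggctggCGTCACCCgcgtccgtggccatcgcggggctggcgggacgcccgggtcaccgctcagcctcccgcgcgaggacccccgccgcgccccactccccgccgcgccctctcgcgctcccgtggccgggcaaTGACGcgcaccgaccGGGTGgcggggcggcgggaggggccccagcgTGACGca
Klf2: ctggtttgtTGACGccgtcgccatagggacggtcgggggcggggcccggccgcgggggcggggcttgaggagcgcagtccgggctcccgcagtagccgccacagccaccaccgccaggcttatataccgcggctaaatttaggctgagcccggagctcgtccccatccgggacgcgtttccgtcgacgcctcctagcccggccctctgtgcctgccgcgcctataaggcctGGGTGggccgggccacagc
Klf4: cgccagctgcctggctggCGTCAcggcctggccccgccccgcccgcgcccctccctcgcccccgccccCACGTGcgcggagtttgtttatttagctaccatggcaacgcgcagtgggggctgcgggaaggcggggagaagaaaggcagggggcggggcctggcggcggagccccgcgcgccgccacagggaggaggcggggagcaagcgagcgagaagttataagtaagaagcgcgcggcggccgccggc

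The Cebpb window held TGACG at 3 positions (-180, -53 and -7 from the gene start), and the Klf2 and Klf4 windows held it at -241 and -232. This motif occurs in 17.8% of all 32851 promoter windows of the same length. Klf4 held CACGTG at -182, a motif of 6.02% of the windows, and a Runx1 window that is not printed held it at -71. CACCC, a motif of 52.0% of the windows, was found in Cebpa at -242, in Cebpb at -177 and -38 and in Klf2 at -19. Another unprinted Runx1 window held CACCC at -246 and -229. The Cebpa window matched neither the E-box, nor the response element core, nor the GC box. The GC box, GGGCGG, was found 5 times in Cebpb, 4 times in Klf4 and 2 times in Klf2, and in 32.7% of all windows. None of the 4 printed windows matched TTNCNNAA, which 36.8% of all windows hold. A letter match is a description and not a binding site.

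Among the 9 genes, 8 passed the test for LPS against PBS in WT (5 higher, 3 lower), beside 76.7% of all 12064 genes tested (36.5% higher, 40.2% lower), so the count alone does not set them apart. In KO-labelled cells 7 passed (4 higher, 3 lower), beside 79.9% of all genes (38.8% higher, 41.1% lower). PBS and LPS libraries did not overlap for 8 of the 9 genes in WT and 7 in KO-labelled cells, and for 78.2% and 81.3% of all genes. The median size of their log2 fold changes, ignoring direction, was 2.13 in WT and 2.04 in KO-labelled cells, against 0.69 and 0.81 over all genes tested. For KO against WT under PBS 6 passed, all higher, where 25.3% of all genes passed (12.3% higher, 13.0% lower). For KO against WT under LPS 4 passed, all higher, beside 41.4% of all genes (22.1% higher, 19.3% lower). WT and KO-labelled libraries did not overlap for 7 of the 9 genes with PBS and 5 with LPS, and for 48.1% and 45.6% of all genes. The response to LPS differed between genotype labels for 5 of the 9 (2 positive, 3 negative), beside 18.0% of all genes (9.78% positive, 8.26% negative). These comparisons share libraries, since each group enters 3 of the 5 contrasts.

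**Figure D1:**
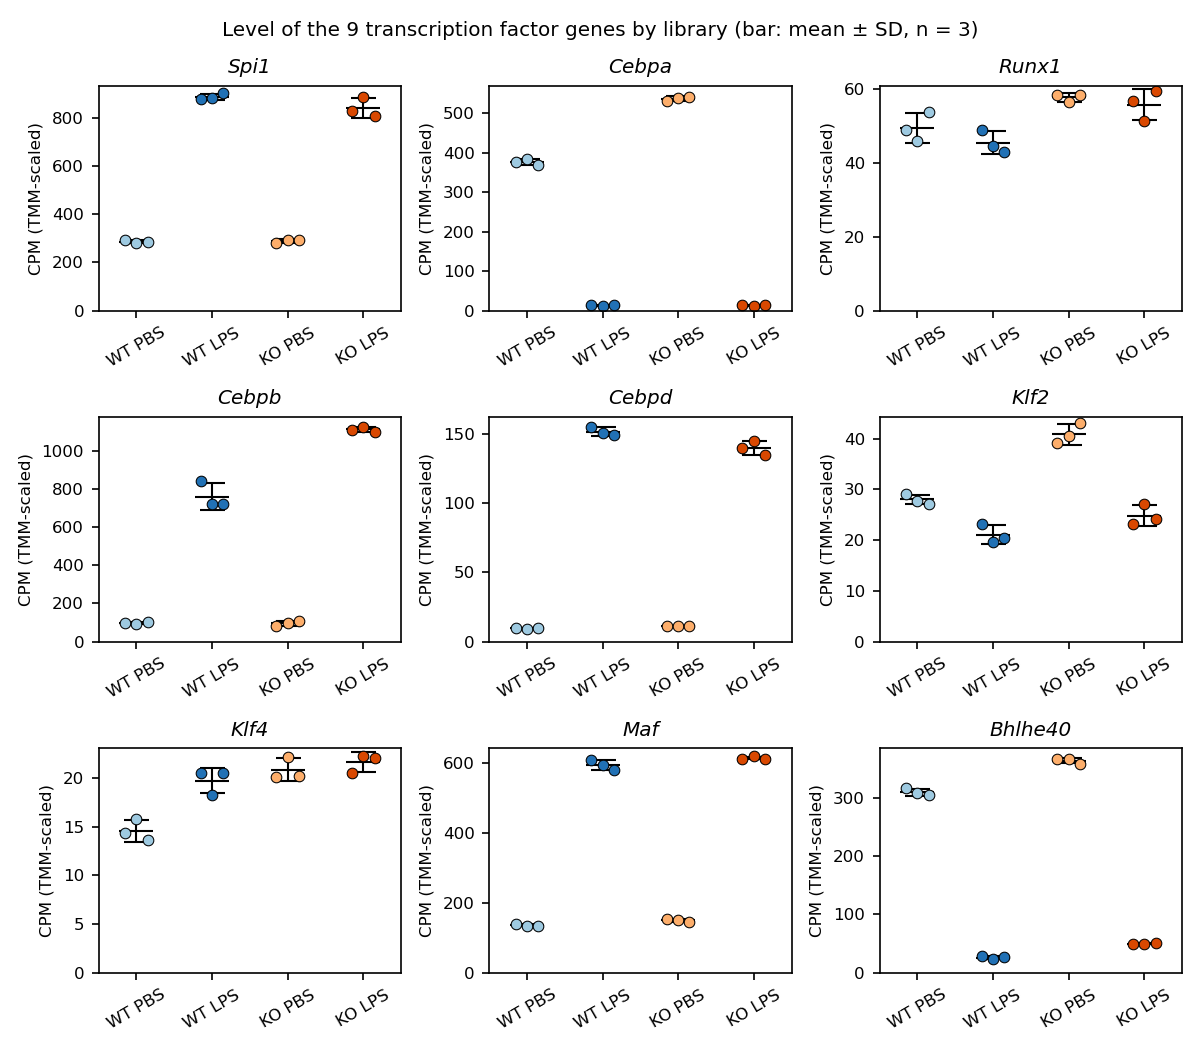
Normalised level of each of the 9 genes (CPM, linear axis from 0) in every library, by group. Points are the 3 libraries of a group, and bars give their mean ± SD. Cebpa and Bhlhe40 drop to 12.3 and 25.7 CPM in WT LPS libraries, whereas Cebpb, Cebpd, Maf and Spi1 rise with LPS under both labels.

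Spi1, the PU.1 gene (NCBI gene 20375, chromosome 2 from 91082374 to 91115759, plus strand), rose with LPS under both labels. It stood at 293, 281 and 285 CPM in the WT PBS libraries and at 879.7, 882 and 902 CPM in the WT LPS libraries. The KO-labelled libraries held 280.4, 294 and 292 CPM with PBS and 830.4, 886 and 808 CPM with LPS. LPS libraries lay far above PBS libraries under both labels, whereas WT and KO-labelled libraries of a treatment overlapped. Spi1 rose 3.1-fold with LPS in WT (log2 fold change 1.63 ± 0.0535 SE, edgeR adjusted p = 2.6e-14) and 2.91-fold in KO-labelled cells (edgeR adjusted p = 4.88e-14). Its difference between labels was 0.01 ± 0.0524 on the log2 scale under PBS and -0.08 ± 0.0522 under LPS, neither past the threshold. With library totals alone the LPS difference was -0.17 and passed as lower (edgeR adjusted p = 0.0187). The interaction of genotype label with LPS was -0.09 ± 0.0739.

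Cebpa, which encodes the C/EBPα protein of granulocyte and monocyte progenitors (NCBI gene 12606, chromosome 7 from 35119293 to 35121928, plus strand), nearly lost its transcripts with LPS. With PBS, the WT libraries held 377, 384 and 368 CPM and the KO-labelled ones 531, 539 and 541 CPM. In the LPS libraries these values came to 13.3, 10.4 and 13.1 CPM in WT and 13.6, 12.4 and 12.9 CPM in KO-labelled libraries. Every PBS library thus lay above every LPS library, and the labels separated under PBS but overlapped under LPS. The fall was 30.6-fold in WT (log2 -4.94 ± 0.0803, edgeR adjusted p = 4.84e-18) and 41.4-fold in KO-labelled cells (log2 -5.37 ± 0.0815, edgeR adjusted p = 1.9e-18). Under PBS, Cebpa was 1.43-fold higher in KO-labelled than in WT libraries (log2 0.51 ± 0.0633, edgeR adjusted p = 2.42e-05). Under LPS the difference was 0.08 and missed the threshold (edgeR adjusted p = 0.517). A correction for GC content raised that last value to 0.28 and past the threshold. The fall with LPS was deeper under the KO label, with an interaction of -0.44 ± 0.108 (edgeR adjusted p = 0.0108).

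Runx1 encodes the DNA-binding subunit of core binding factor (NCBI gene 12394, chromosome 16 from 92601466 to 92826074, minus strand). Its WT libraries held 48.9, 45.7 and 53.7 CPM with PBS and 48.9, 44.4 and 42.9 CPM with LPS. The KO-labelled libraries held 58.3, 56.3 and 58.2 CPM with PBS and 56.6, 51.2 and 59.3 CPM with LPS. Within a label the treatments overlapped, whereas within a treatment every KO-labelled library lay above every WT library. The LPS change was -0.12 ± 0.0751 in WT (edgeR adjusted p = 0.148) and -0.05 in KO-labelled cells (edgeR adjusted p = 0.564). Without replicate 1 of WT LPS the WT value was -0.18 and passed the threshold (edgeR adjusted p = 0.0339). Runx1 was higher under the KO label by 0.22 ± 0.073 with PBS (edgeR adjusted p = 0.0363) and by 0.30 ± 0.0764 with LPS (edgeR adjusted p = 0.00547). The PBS call was lost in 5 of the fits that left out a library, where edgeR's adjusted p ran from 0.0515 to 0.169.

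Cebpb, the gene for the C/EBPβ activator of cytokine genes (NCBI gene 12608, chromosome 2 from 167688915 to 167690432, plus strand), showed the higher induction under the KO label. WT libraries held 96.4, 92.6 and 104 CPM with PBS and 842, 721 and 721 CPM with LPS. KO-labelled libraries held 82.6, 98.2 and 108 CPM with PBS and 1113, 1127 and 1101 CPM with LPS. The PBS groups overlapped, and every KO-labelled LPS library lay above every WT LPS library, of which replicate 1 was the highest. Cebpb rose 7.78-fold in WT (log2 2.96 ± 0.0919, edgeR adjusted p = 1.28e-14) and 11.6-fold in KO-labelled cells (log2 3.53 ± 0.0941, edgeR adjusted p = 1.4e-15). Under LPS it was 1.46-fold higher with the KO label (log2 0.55 ± 0.085, edgeR adjusted p = 9.48e-05), and under PBS the difference was -0.02 (edgeR adjusted p = 0.887). The interaction was 0.57 ± 0.122 (edgeR adjusted p = 0.00408) and 0.65 without replicate 1 of WT LPS.

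Cebpd, the gene for C/EBPδ, an amplifier of sustained Toll-like receptor signals (NCBI gene 12609, chromosome 16 from 15887286 to 15889545, plus strand), had the largest fold rise of the 9 genes in WT. It moved from 9.58, 9.12 and 9.76 CPM in WT PBS to 155, 151 and 149 CPM in WT LPS. In KO-labelled cells it moved from 11.5 CPM in each PBS library to 140, 145 and 135 CPM with LPS. The KO-labelled libraries therefore lay above WT with PBS and below WT with LPS, with no overlap in either. The rise was 16-fold in WT (log2 4.0 ± 0.0623, edgeR adjusted p = 3.19e-18) and 12.1-fold in KO-labelled cells (edgeR adjusted p = 5.39e-18), and the interaction was -0.40 ± 0.084 (edgeR adjusted p = 0.00386). Under PBS the KO label was higher by 0.28 ± 0.0657 (edgeR adjusted p = 0.00515). Under LPS the difference of -0.11 missed the threshold (edgeR adjusted p = 0.0906), but passed as lower with upper-quartile scaling, with library totals and with at least 10 counts in every library.

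Cebpb and Cebpd carry decimals in 8 and 12 of the libraries, so some of their reads were shared with other features, and each overlaps a gene on the opposite strand. Whether the counting used strand is not given in the sources used here. Tmem189, which overlaps Cebpb, had means of 309 CPM (PBS) and 173 CPM (LPS) in WT, and Spidr, which overlaps Cebpd, had means of 10.2 and 9.91 CPM. Neither neighbour was higher with LPS in WT. Cebpa, Runx1, Maf and Bhlhe40 each overlap an antisense RNA of the GENCODE annotation, and those RNAs were not analysed here.

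To compare the C/EBP genes with each other, CPM was divided by gene length in kb. Their summed level was 211 ± 0.984 CPM per kb in WT PBS and 573 ± 47.9 in WT LPS (SD, n = 3). Cebpa held 67.5 ± 1.79% of that sum in WT PBS and 0.814 ± 0.0953% in WT LPS, while the share of Cebpb went from 30.5 ± 1.74% to 87.5 ± 0.747%. In KO-labelled cells the sum was 272 ± 10.4 CPM per kb with PBS and 800.4 ± 10.8 with LPS. There Cebpa held 74.9 ± 2.17% and then 0.614 ± 0.0312%, and Cebpb 23.3 ± 2.24% and then 91.7 ± 0.158%. Cebpd made up 1.99% and 1.88% of the sum in the PBS groups, and 11.7% in WT LPS and 7.73% in KO-labelled LPS. With the merged exon length of GENCODE, chosen after the data were seen, the LPS shares of Cebpd were 7.36% and 4.77%, and the order of the genes in each group stayed as given.

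**Figure D2:**
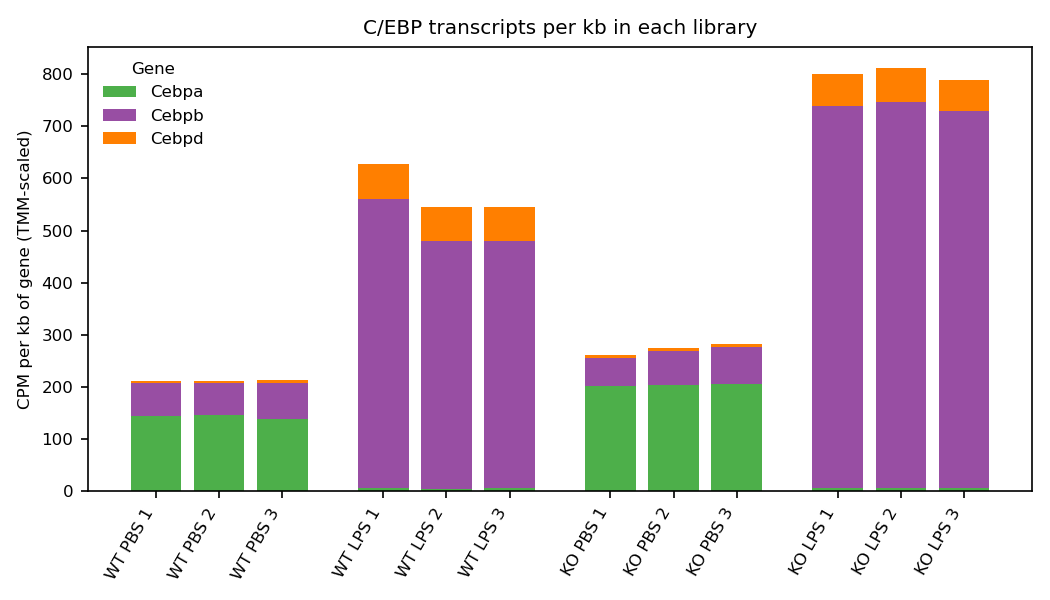
Stacked levels of Cebpa, Cebpb and Cebpd in CPM per kb of gene (linear axis from 0) in each of the 12 libraries, labelled by group and replicate. Cebpa fills most of each PBS bar (67.5% on average in WT) and Cebpb most of each LPS bar (87.5% in WT).

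Klf2, an inhibitor of inflammatory gene expression in myeloid and endothelial cells (NCBI gene 16598, chromosome 8 from 72319062 to 72321654, plus strand), was highest in KO-labelled PBS cells. With PBS it stood at 29.1, 27.8 and 27.2 CPM in WT and at 39.1, 40.5 and 43.1 CPM in KO-labelled libraries. The LPS libraries stood at 23.2, 19.6 and 20.4 CPM in WT and at 23.1, 27.1 and 24.2 CPM in KO-labelled libraries. LPS libraries lay below PBS libraries under each label, and the labels overlapped under LPS only. Klf2 was 1.46-fold higher with the KO label under PBS (log2 0.54 ± 0.0734, edgeR adjusted p = 6.01e-05). It fell 1.33-fold with LPS in WT (edgeR adjusted p = 0.000163) and 1.65-fold in KO-labelled cells (log2 -0.72 ± 0.0772, edgeR adjusted p = 2e-07). The GC correction brought the WT change to -0.11 and ended that call (edgeR adjusted p = 0.133), and brought the KO-labelled change to -0.29, still past the threshold. Its difference under LPS (log2 0.24, edgeR adjusted p = 0.0318) was lost without replicate 2 or 3 of WT LPS, without replicate 2 of KO-labelled LPS and under 3 other alternatives, with values between 0.15 and 0.44 over all alternatives. Its interaction was -0.31 ± 0.111 (edgeR adjusted p = 0.0661).

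Klf4, which promotes monocyte differentiation (NCBI gene 16600, chromosome 4 from 55527137 to 55532475, minus strand), was lowest in WT PBS cells. Its WT libraries held 14.3, 15.8 and 13.6 CPM with PBS and 20.5, 18.2 and 20.5 CPM with LPS. Its KO-labelled libraries held 20.1, 22.2 and 20.2 CPM with PBS and 20.5, 22.3 and 22.1 CPM with LPS. WT PBS stood clear of the others, among which WT LPS overlapped KO-labelled PBS and both KO-labelled groups overlapped. Under PBS the KO label was 1.43-fold higher (log2 0.52 ± 0.0775, edgeR adjusted p = 0.000162). In WT, Klf4 was 1.36-fold higher with LPS (log2 0.44 ± 0.0811, edgeR adjusted p = 0.000114), and in KO-labelled cells the change was 0.06 (edgeR adjusted p = 0.522). The direction of both changes depends on scaling. In WT it was 0.13 with upper-quartile scaling (edgeR adjusted p = 0.163) and -0.22 with library totals alone. In KO-labelled cells Klf4 passed as higher with the GC correction (log2 0.32, edgeR adjusted p = 0.000718) and as lower with upper-quartile scaling (log2 -0.30) and library totals (log2 -0.75). Under LPS the difference between labels was 0.13 (edgeR adjusted p = 0.21), and with the GC correction it was 0.31 and passed (edgeR adjusted p = 0.00507). The interaction of -0.38 ± 0.113 (edgeR adjusted p = 0.0273) missed the threshold in 6 of 21 alternatives, which include the GC correction (log2 -0.28).

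Maf, the gene for c-MAF (NCBI gene 17132, chromosome 8 from 115703253 to 115706894, minus strand), rose with LPS under both labels. Its WT libraries held 139, 134 and 134 CPM with PBS and 609, 595 and 580.4 CPM with LPS. KO-labelled libraries held 152, 149 and 146 CPM with PBS and 611, 618 and 612 CPM with LPS. The KO-labelled values lay just above WT in each treatment, without overlap. With library totals alone the order under LPS reversed: WT libraries stood at 478, 480.3 and 468 CPM and KO-labelled ones at 462, 467 and 455. Maf rose 4.38-fold in WT (log2 2.13 ± 0.0505, edgeR adjusted p = 3.86e-16) and 4.12-fold in KO-labelled cells (edgeR adjusted p = 4.95e-16). The difference between labels was 0.13 with PBS (edgeR adjusted p = 0.0571), past the threshold in 9 of 22 alternatives, and 0.05 with LPS (edgeR adjusted p = 0.475). Maf also carried decimals in 12 libraries.

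Bhlhe40 (NCBI gene 20893, chromosome 6 from 108660629 to 108666925, plus strand) fell with LPS, and more of it remained under the KO label. WT libraries held 316, 308 and 304 CPM with PBS and 28.6, 22.4 and 26.2 CPM with LPS. KO-labelled libraries held 366, 366 and 358 CPM with PBS and 49.6, 48.5 and 50.6 CPM with LPS. No libraries of any pair of groups overlapped. The fall was 12-fold in WT (log2 -3.59 ± 0.0741, edgeR adjusted p = 6.93e-17) and 7.33-fold in KO-labelled cells (log2 -2.87 ± 0.0705, edgeR adjusted p = 4.68e-16). Under LPS, Bhlhe40 was 1.93-fold higher with the KO label (log2 0.95 ± 0.0734, edgeR adjusted p = 9.22e-08), and its interaction was 0.71 ± 0.097 (edgeR adjusted p = 0.000119). Without replicate 1 of WT LPS the interaction was 0.80. Under PBS the KO label was higher by 0.23 ± 0.0636 (edgeR adjusted p = 0.0142), a call lost without WT PBS replicate 3 (log2 0.22, edgeR adjusted p = 0.0597).

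**Figure D3:**
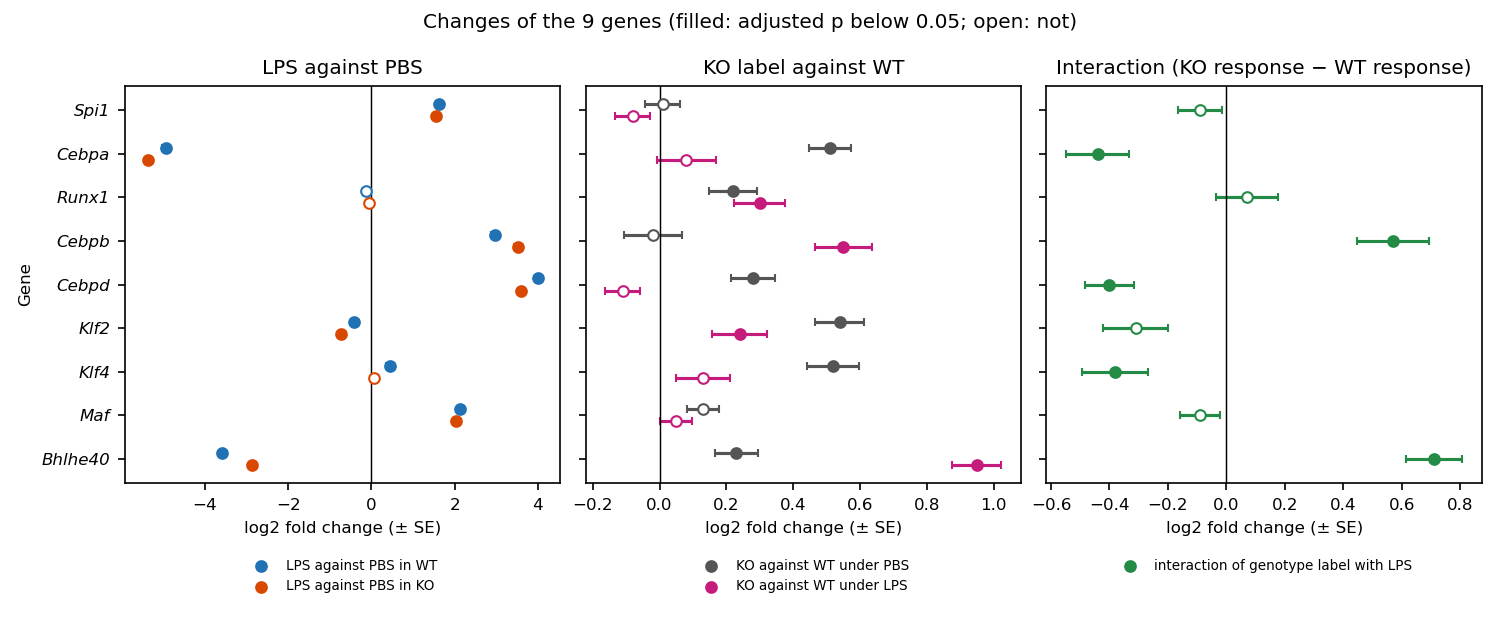
Log2 fold changes ± SE of the 9 genes for LPS against PBS (left), KO label against WT (middle) and the difference between the LPS responses (right), from the fit to all 12 libraries. Filled points passed an adjusted p of 0.05 and open points did not. In the middle panel the filled points lie to the right of 0, up to 0.95 for Bhlhe40 under LPS.

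The size of every LPS change depends on how the libraries were scaled, because the TMM factors were above 1 in every PBS library and below 1 in every LPS library. Scaling by library totals alone lowered the median log2 fold change of all genes by 0.66 in WT and by 0.80 in KO-labelled cells, and upper-quartile scaling lowered it by 0.31 and 0.36. In WT, library totals moved Spi1 from 1.63 to 0.97, Cebpb from 2.96 to 2.30 and Cebpa from -4.94 to -5.60, each by about the size of that shift. The calls for Spi1, Cebpa, Cebpb, Cebpd, Maf and Bhlhe40 with LPS held under every alternative tried. Runx1 passed as lower in both labels with upper-quartile scaling (log2 -0.43 and -0.40) and with library totals (log2 -0.79 and -0.85).

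**Figure D4:**
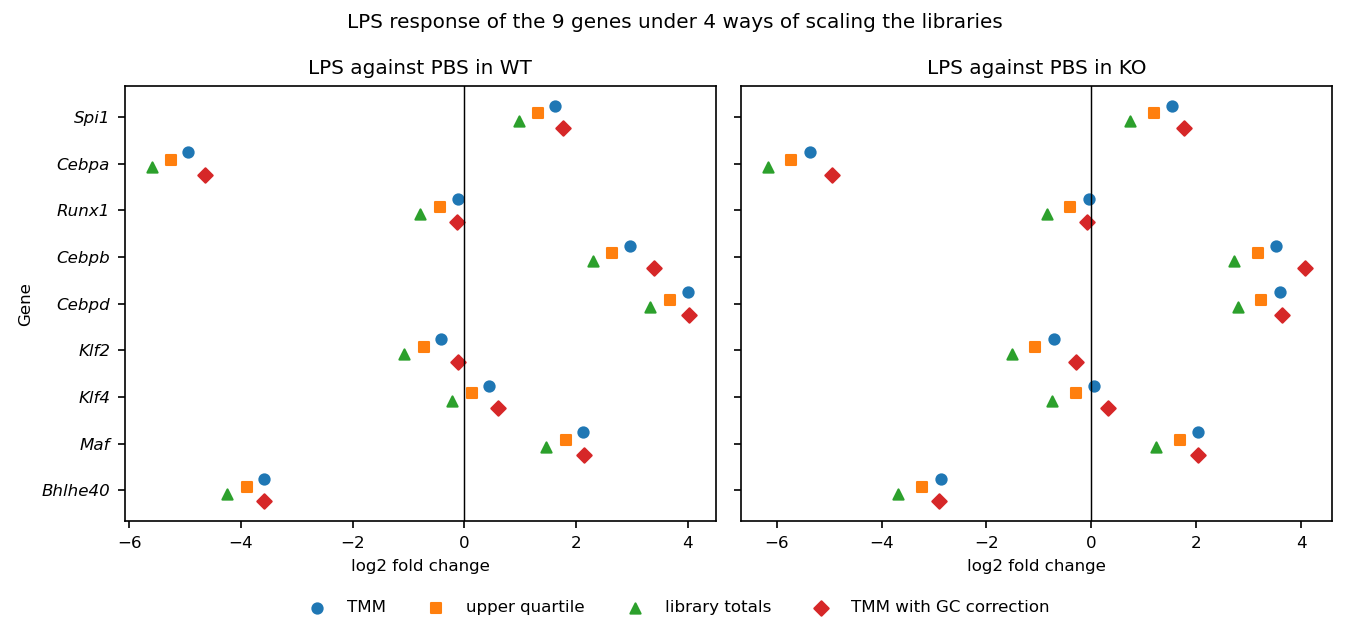
Log2 fold change of the 9 genes for LPS against PBS in WT (left) and KO-labelled cells (right) under TMM, upper-quartile scaling, library totals alone, and TMM with a GC correction. Klf4 in WT crosses 0, from 0.44 with TMM to -0.22 with library totals, while Cebpa, Cebpb, Cebpd, Maf, Bhlhe40 and Spi1 keep their side.

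Relatives and partners of these factors were listed from general knowledge, with earlier results of these data known. Of 8 C/EBP relatives and Tribbles regulators tested, 1 rose and 5 fell with LPS in WT (36.5% and 40.2% of all genes did), with a median log2 fold change of -1.33 (-0.05 over all genes tested). Nfil3, a basic leucine zipper repressor, rose from 8.64 ± 0.883 to 58.5 ± 1.3 CPM, and Cebpg, a partner of other C/EBP proteins, fell from 38.9 ± 1.05 to 13.7 ± 0.32 CPM. Trib1, an adaptor that marks C/EBPα for degradation, had PBS and LPS means of 19.1 and 21.1 CPM in WT, and of 19.6 and 37.7 CPM under the KO label. Its interaction was 0.80 ± 0.147 (edgeR adjusted p = 0.00135).

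All 9 other KLF genes tested passed with LPS in WT, 6 higher and 3 lower, beside 76.7% of all genes. Klf6 rose from 229 ± 6.04 to 879.7 ± 35.5 CPM, and Klf10, a gene induced by TGF-β, fell from 28.4 ± 0.578 to 4.3 ± 0.216 CPM. With the KO label under LPS 5 of the 9 were higher and none was lower (22.1% and 19.3% of all genes), and Klf7 differed most, at 109 ± 7.49 against 52.3 ± 4.36 CPM. Among 4 other MAF genes, 2 rose and 2 fell with LPS in WT, and Mafk, a small MAF protein gene, rose 4.86-fold. Of 5 RUNX partners and paralogues, 4 fell and 1 rose with LPS in WT. For both lists the shares over all genes were 36.5% higher and 40.2% lower. Cbfb, which binds DNA together with RUNX1, rose 1.35-fold with TMM but stood at -0.23 on the log2 scale with library totals alone, and Runx2 fell 5.31-fold.

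Among 17 other ETS genes, 9 rose and 5 fell with LPS in WT (median log2 0.37), beside 36.5% and 40.2% of all genes (median -0.05). Ets2 rose 10.8-fold in WT, from 23.4 ± 2.16 to 254 ± 31.0 CPM, and 24.1-fold in KO-labelled cells, from 15.6 ± 0.8 to 377 ± 19.2 CPM. Fli1 fell 5.9-fold in WT. Of 23 other transcription factors of the myeloid lineage, 6 rose and 13 fell in WT, with a median of -0.46, beside those same shares of all genes. Tfeb, the regulator of lysosomal genes, fell 12.3-fold in WT, from 80.3 ± 2.1 to 6.54 ± 0.45 CPM. With the KO label under PBS, 9 of the 23 were higher and 1 was lower, where 12.3% and 13.0% of all genes were. Under LPS 11 were higher and 6 lower, where 22.1% and 19.3% of all genes were. Id3, an inhibitor of basic helix-loop-helix proteins, was 3.85-fold higher under PBS (30.6 ± 1.38 against 7.94 ± 0.958 CPM). Tfec was 2.2-fold higher under LPS (55.6 ± 1.24 against 25.3 ± 1.1 CPM).

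Known targets of these factors were read from a list of 28 genes, all of which were tested. The list was drawn up with earlier results of these data known and holds strongly LPS-induced genes such as Il6 and Csf3. Its counts are therefore no test of the factors. In WT, 17 rose and 7 fell with LPS (median log2 0.67), where 36.5% of all genes rose and 40.2% fell. In KO-labelled cells 16 rose and 7 fell (median 0.49), where 38.8% of all genes rose and 41.1% fell. Under LPS 11 were higher and 7 lower with the KO label, where 22.1% and 19.3% of all genes were. Il6, a C/EBPβ target, stood with LPS at 412 ± 62.8 CPM in WT and at 1212 ± 54.6 CPM under the KO label, and its PBS means of 0.108 and 0.2 CPM were close to the floor. Csf3 stood at 24.3 ± 1.79 and 100.4 ± 9.61 CPM under LPS, a 4.14-fold difference (edgeR adjusted p = 8.6e-11). Mrc1, the mannose receptor, was 2.14-fold lower and Itgax, the integrin CD11c, 2.09-fold lower with the KO label under LPS. Csf1r, the PU.1-dependent receptor for macrophage colony-stimulating factor, went from 617 ± 21.3 to 425 ± 85.4 CPM in WT and from 639 ± 33.0 to 295 ± 22.8 CPM in KO-labelled cells. Under PBS the KO label went with 5 targets higher and 8 lower (12.3% and 13.0% of all genes), among them Csf3r at 163 against 98.2 CPM and Mrc1 at 119 against 273 CPM.

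For 8 of the 9 genes, the tested genes with the nearest pattern over the 12 libraries were found by the root mean square difference of log2 levels, centred on each gene, among 8723 genes. The libraries share 4 groups, so these distances mostly follow the group means, and no test was made. Spi1 lay nearest to Msl3l2 (0.0557) and Nub1 (0.0578), Maf to Gtpbp2 (0.0636) and Irf2 (0.0649), and Runx1 to Nt5dc1 (0.0558). Cebpb lay nearest to Mapkapk2 (0.0979), which averaged 194 and 1635 CPM in WT PBS and LPS and 199.9 and 2137 CPM in the KO-labelled groups. Cebpd lay nearest to Ripk2 (0.100), at 8.06 and 136 CPM in WT and 9.59 and 133 CPM in the KO-labelled groups. For Cebpa the nearest gene lay farther away: Cxcr4, at 0.186, with 68.7 and 1.56 CPM in WT and 116 and 2.22 CPM in the KO-labelled groups. Bhlhe40 was nearest to S1pr1 (0.21), and Klf2 to Plpp6 (0.101) and Ctnnb1 (0.109). The neighbours depend on the measure. Ranked by Pearson correlation, Msl3l2 stood at 37 for Spi1 and Cxcr4 at 25 for Cebpa, while Irf2 stayed at 2 for Maf and Ctnnb1 at 2 for Klf2.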

How the data were processed

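Single-end libraries were sequenced on a BGISEQ-500. The deposited values are expected counts per gene under NCBI gene numbers. The submitters' processing notes name Bowtie2, RSEM 1.3.1 and build GRCm38.p6, whereas the study's methods name STAR and HTSeq. Decimals were found in 24.6% to 26.9% of each library's values, and all values were rounded to whole counts. Floors cover counting error only, since reads carried no molecular identifiers.

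Genes were filtered with filterByExpr over the 4 groups (12064 of 16920 kept) and scaled with TMM. A quasi-likelihood model with a mean for each group was fitted in edgeR 4.0.16 (R 4.3.3), using all 12 libraries, and 5 contrasts were tested. P-values are two-sided and adjusted by Benjamini-Hochberg over every gene tested (threshold 0.05). The biological coefficient of variation was 6.99%. The code was tested on simulated data.

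Gene numbers were matched to an NCBI table of GRCm38.p6 (99.3% found), and GC content and exon length came from GENCODE (97.9%). Positions come from that match.

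The 9 genes and the lists were chosen with earlier results of these data known. Of each list, the genes named are among the 2 that changed most in each direction in a contrast, past the threshold and with at least 5 CPM in the higher group. Genes used for target counts may be named beside them, and genes nearest in pattern are among the 2 nearest. Some named items are not reported here. The alternatives were other scalings, filters, DESeq2 1.42.0, a GC correction (lowess, span 0.3), the replicate number as a block, a fit to only the libraries compared, and leaving out each library.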

Additional observations from a re-analysis of the deposited data

Results flagged for a closer look

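The response to LPS differed between the genotype labels, by the interaction in edgeR over all 12 libraries, for 5 of the 9 transcription factor genes (18.0% of all genes passed). The values were -0.44 on the log2 scale for Cebpa, 0.57 for Cebpb, -0.40 for Cebpd, -0.38 for Klf4 and 0.71 for Bhlhe40, where a negative value is a lower log2 change with LPS under the KO label. Bhlhe40, Cebpa, Cebpb and Cebpd passed under all 21 alternatives and Klf4 under 15.

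The same test passed for genes named from the lists. It gave 0.80 for Trib1, 1.13 for Klf7, -0.69 for Klf11, -0.92 for Runx3, 1.15 for Ets2, -0.38 for Etv3, 1.25 for Tfec, 0.94 for Egr2, -0.62 for Id3 and -0.54 for Rxra. Among the known targets it gave 1.39 for Saa3, -0.77 for Thbd and -0.58 for Csf1r. The fitted value for Csf3 was 5.26, but its KO-labelled PBS libraries averaged 0.0235 CPM, under the floor of 3 counts, so this size depends on the prior count and is no bound. Ythdf1, the targeted gene, had an interaction of -0.42: it was higher in KO-labelled than in WT libraries under PBS (57.2 against 43.5 CPM) and did not pass under LPS.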

How the results depend on the processing

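Of 981 values of the 9 genes under the alternatives, 910 kept their direction and side of the threshold, 21 lost a call, 30 gained a call and 20 changed sign. Of 2329 values of the named list genes and Ythdf1, 2298 kept both. With library totals alone, 8 of the 9 genes passed the interaction instead of 5, Klf4 with LPS stood at -0.22 in WT and -0.75 in KO-labelled cells, Cbfb at -0.23 and -0.22, and the interaction of Runx1 at -0.06. For KO against WT, library totals gave 0.03 for Cebpb under PBS and, under LPS, -0.01 for Cebpa and -0.04 for Maf. Upper-quartile scaling gave -0.30 for Klf4 with LPS in KO-labelled cells, -0.01 for Spi1 (KO against WT, PBS) and -0.02 for Maf (LPS). The GC correction gave 0.09 for Cebpb (PBS), 0.09 for Spi1 and 0.03 for Ythdf1 (LPS), and 0.0037 for the interaction of Spi1. Beyond scaling itself, the cause was not tested. Leaving out each replicate in turn gave -0.09 to 0.01 for Runx1 with LPS in KO-labelled cells. For KO against WT it gave -0.0012 to 0.06 for Spi1 and -0.09 to 0.10 for Cebpb under PBS, and -0.03 to 0.14 for Cebpa and -0.06 to 0.01 for Ythdf1 under LPS.

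Whether the replicate numbers pair the libraries was not settled. Same-numbered libraries correlated between -0.076 and 0.127 in their deviations from the group means, and not every library correlated best with its own number. Between KO-labelled PBS and LPS each library did correlate best with its own number, though weakly (0.014, 0.046 and 0.036). Deviations from means of 3 libraries cannot exclude pairing. With the replicate number as a block, 8, 7, 6, 4 and 5 of the 9 genes passed in the 5 contrasts, as without it. With the block and the GC correction, Cebpb stood at 0.08 (PBS), Spi1 at 0.09 and Ythdf1 at 0.03 (LPS), and the interaction of Spi1 at 0.004. Each of the 9 genes had at least 183 counts in every library, above the floor of 3 counts, and the effect of depth was not tested.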
